A study of Mus musculus with 16 samples.

Results

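The nuclear genes of the respiratory chain encode subunits of NADH dehydrogenase (complex I), succinate dehydrogenase (complex II), the cytochrome bc1 complex (complex III), cytochrome c oxidase (complex IV) and ATP synthase. They were taken by symbol as autosomal protein-coding genes of GENCODE M21 whose names start with Nduf and the letter a, b, c, s or v and a number, with Cox4 to Cox8, with Uqcr or with Atp5, together with Sdha, Sdhb, Sdhc and Sdhd. The rule found 82 gene records with 81 symbols among 20807 autosomal genes and 21938 protein-coding genes in all. Of these, 35 were named for complex I, 4 for complex II, 8 for complex III, 17 for complex IV and 18 for ATP synthase. The symbols set these groups, so Ndufa4, whose protein is now placed in complex IV, stands with complex I, and Cox7a2l, which helps respiratory complexes associate, stands with complex IV.

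RNA polymerase II (Pol II) and histone H2B carrying a single ubiquitin (H2Bub1) were mapped by chromatin immunoprecipitation and sequencing (ChIP-seq) in mouse cells with and without ATXN7L3, the adaptor that activates the H2B deubiquitylases. The control cells were Atxn7l3+/+ (WT) and the others carried the null allele in every cell (Atxn7l3-/-), all on a DBA/2 x C57BL/6 background. Mouse embryonic stem cells (mESCs) were grown with LIF, PD0325901 and CH99021 after feeder cells had been removed, and mouse embryonic fibroblasts (MEFs) were made from embryos at E10.5. No other agent was given, and how many embryos or lines stand behind each library is not given in the sources used here. For each cell type and genotype there was 1 H2Bub1 library and 1 Pol II library, so no difference below has a replicate check, no test was made and no p-value is given.

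The respiratory chain passes electrons from NADH and succinate to oxygen and pumps protons across the inner mitochondrial membrane, and ATP synthase uses the proton gradient to make ATP. The subunits come from the nuclear and the mitochondrial genome, and the nuclear genes are widely expressed, apart from a few isoforms kept to heart, muscle, lung or testis. H2Bub1 is laid down on transcribed genes as Pol II elongates and is removed by the deubiquitylase module of the SAGA coactivator and by related proteases that share the ATXN7L3 adaptor.

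The promoter sequence of 1 member of each complex is shown first, since the Pol II values below are read around these starts. The RefSeq starts of the sequences shown lie 0 to 60 bp from those of the gene records, from which distances were measured. Among the records with a sequence entry, they are those with the highest Pol II level in WT cells of both types (the larger minimum over mESCs and MEFs). The sequences come from RefSeq, build GRCm38.p6, and run 5′ to 3′ along the gene from 250 bases before its start to 50 after. Of the 82 records, 52 had an entry whose start lay within 100 bp of the start of the gene record. Capitals mark the letters of 5 motifs searched on both strands, namely the NRF1 palindrome of 10 letters (spelled out in the Ndufa11 promoter below), CCGGAAGT for the ETS family, AAGATGGC for YY1, GGGCGG for the Sp family and TATAAA for the TATA box.
Ndufb10, chr17:24724374-24724673, minus strand: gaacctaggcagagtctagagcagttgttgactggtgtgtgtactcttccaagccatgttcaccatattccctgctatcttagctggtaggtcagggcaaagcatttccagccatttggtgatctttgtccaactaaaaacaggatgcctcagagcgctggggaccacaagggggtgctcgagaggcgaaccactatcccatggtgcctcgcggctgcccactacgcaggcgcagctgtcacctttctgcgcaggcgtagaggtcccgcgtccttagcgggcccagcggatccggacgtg
Sdha, chr13:74350191-74350490, minus strand: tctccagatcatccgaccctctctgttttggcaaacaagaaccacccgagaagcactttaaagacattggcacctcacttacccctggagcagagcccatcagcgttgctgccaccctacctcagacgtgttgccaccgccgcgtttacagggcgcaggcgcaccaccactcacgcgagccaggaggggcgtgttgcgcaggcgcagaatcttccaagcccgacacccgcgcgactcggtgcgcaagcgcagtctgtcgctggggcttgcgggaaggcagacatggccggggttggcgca
Uqcr11, chr10:80406772-80407071, minus strand: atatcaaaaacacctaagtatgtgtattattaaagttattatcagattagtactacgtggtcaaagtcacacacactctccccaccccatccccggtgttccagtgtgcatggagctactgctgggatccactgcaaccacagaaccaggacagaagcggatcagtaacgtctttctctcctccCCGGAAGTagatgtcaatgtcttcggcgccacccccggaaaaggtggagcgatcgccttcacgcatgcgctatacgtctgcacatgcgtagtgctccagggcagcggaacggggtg
Cox5a, chr9:57520982-57521281, plus strand: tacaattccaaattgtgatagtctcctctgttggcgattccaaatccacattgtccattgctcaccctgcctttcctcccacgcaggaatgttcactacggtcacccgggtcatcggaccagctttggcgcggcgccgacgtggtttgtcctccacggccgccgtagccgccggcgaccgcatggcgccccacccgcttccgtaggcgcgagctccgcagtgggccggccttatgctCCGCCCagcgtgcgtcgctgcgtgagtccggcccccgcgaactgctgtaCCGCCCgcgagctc
Atp5e, chr2:174464052-174464351, minus strand: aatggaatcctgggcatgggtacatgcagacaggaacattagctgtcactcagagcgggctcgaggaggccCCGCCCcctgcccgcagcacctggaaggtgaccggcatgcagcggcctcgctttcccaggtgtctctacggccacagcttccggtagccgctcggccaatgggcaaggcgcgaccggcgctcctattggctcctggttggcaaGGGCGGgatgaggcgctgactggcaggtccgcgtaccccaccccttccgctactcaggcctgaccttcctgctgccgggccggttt
Ndufb10, an accessory subunit in the membrane arm of complex I, and Sdha, the flavoprotein that oxidises succinate, held none of these letters in the window. Uqcr11, a small subunit of complex III, held the ETS letters, which began at -66 from the start. Cox5a, a subunit of complex IV that every tissue uses, held the Sp letters at -13 and 37, and Atp5e, the epsilon subunit of ATP synthase, held them at -179 and -36.

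4 further promoters are shown as contrasts and were chosen after their values were seen. Cox7a1 encodes the heart and muscle isoform of a small complex IV subunit and gained H2Bub1 over its whole length in mESCs alone. Cox7b2 had no peak of either kind in any list. Ndufa11 and Ndufs6, of complex I, hold the NRF1 and the YY1 letters.
Cox7a1, chr7:30183921-30184220, plus strand: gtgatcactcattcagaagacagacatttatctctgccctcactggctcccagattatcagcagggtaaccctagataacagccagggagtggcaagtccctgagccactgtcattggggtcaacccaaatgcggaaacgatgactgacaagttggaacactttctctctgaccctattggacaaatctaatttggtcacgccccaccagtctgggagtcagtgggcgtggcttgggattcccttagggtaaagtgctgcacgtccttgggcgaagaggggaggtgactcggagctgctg
Cox7b2, chr5:71548156-71548455, minus strand: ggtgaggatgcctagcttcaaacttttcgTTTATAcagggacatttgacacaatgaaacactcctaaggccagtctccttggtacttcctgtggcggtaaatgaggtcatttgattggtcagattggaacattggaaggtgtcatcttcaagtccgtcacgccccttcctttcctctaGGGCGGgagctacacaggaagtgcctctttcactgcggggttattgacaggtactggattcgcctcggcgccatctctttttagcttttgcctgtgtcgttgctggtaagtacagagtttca
Ndufa11, chr17:56717512-56717811, plus strand: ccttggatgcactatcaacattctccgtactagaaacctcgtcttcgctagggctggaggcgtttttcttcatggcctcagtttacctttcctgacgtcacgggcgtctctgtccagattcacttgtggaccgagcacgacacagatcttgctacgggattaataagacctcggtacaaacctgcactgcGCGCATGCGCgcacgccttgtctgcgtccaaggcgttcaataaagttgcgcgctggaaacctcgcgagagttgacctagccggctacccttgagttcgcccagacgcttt
Ndufs6, chr13:73328433-73328732, minus strand: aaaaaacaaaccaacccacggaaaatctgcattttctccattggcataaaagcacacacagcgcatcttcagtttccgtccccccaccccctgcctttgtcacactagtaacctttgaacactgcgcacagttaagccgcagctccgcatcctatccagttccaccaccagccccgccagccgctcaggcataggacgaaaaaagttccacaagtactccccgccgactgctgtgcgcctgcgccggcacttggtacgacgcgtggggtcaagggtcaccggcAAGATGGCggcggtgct
In Ndufa11 the NRF1 letters began at -60, and in Ndufs6 the YY1 letters began at 34, inside the transcribed part. Cox7b2 held the Sp letters at -72 and the TATA letters at -221, while Cox7a1 held no match. Across the 52 promoters, the NRF1 letters stood in 4 (7.69%, against 1.68% of 11641 promoters of the same length), those of Atp5k, Cox6a1, Ndufa11 and Uqcrc1. The YY1 letters stood in 5 (9.62%, against 3.51%), those of Ndufa3, Ndufa9, Ndufb8, Ndufc1 and Ndufs6. The ETS letters stood in 4 (7.69%, against 6.33%), the Sp letters in 19 (36.5%, against 51.1%) and the TATA letters in 6 (11.5%, against 12.1%). The median GC content was 57.3% in members and 57.7% in all. A match describes these letters in this window and is not a measured binding site.

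2 quantities were read from the peak lists. The Pol II level of a promoter was the highest fold over background among the peaks that came within 1000 bp of the transcription start site (TSS), and a gene without such a peak has no level. The H2Bub1 covered share was the percentage of the gene body, from TSS to gene end, that lay inside H2Bub1 peaks. Intervals in parentheses are 95% intervals (exact Clopper-Pearson for percentages, exact binomial for medians) and cover counting error over the genes of a list only.

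The Pol II lists held 17074 peaks in WT and 11963 in Atxn7l3-/- mESCs, and 45870 and 32232 in MEFs. In total length the H2Bub1 lists came to 71.6 Mb for WT and 151 Mb for Atxn7l3-/- mESCs, and to 48.1 and 223 Mb for MEFs. The reads behind each list are unknown, and a deeper library gives more and wider peaks, so the genotype and the depth of a library cannot be told apart here. The promoter of Atxn7l3 had a Pol II peak in all 4 lists, at 3.61 and 3.71 in WT and Atxn7l3-/- mESCs and at 20.9 and 23.4 in MEFs, and peak lists do not check the deletion. Of 4 pluripotency markers (Pou5f1, Sox2, Nanog and Tfcp2l1), all had a Pol II peak in both mESC lists, and in MEFs only Tfcp2l1 had one, in Atxn7l3-/- cells. Of 4 fibroblast markers (Col1a1, Col1a2, Thy1 and Twist2), all had one in both MEF lists and none in mESCs.

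Members were short and often shared their start with a neighbour. Their median length was 7.57 kb (5.73 to 9.14), against 17.6 kb over all autosomal genes, with a range from 0.953 kb for Cox6a2 to 243 kb for a long record of Atp5o. The TSS of 29 members (35.4%) lay within 1000 bp of the TSS of another protein-coding gene, against 12.9% of all genes. Examples are Ndufa7 beside Rps28, Ndufb9 beside Tatdn1, Ndufs1 beside Eef1b2, Ndufs6 beside Mrpl36, Sdhd beside Timm8b and Atp5j beside Gabpa. At such pairs a promoter peak cannot be assigned to either gene. Atp5o, the stalk subunit of ATP synthase, has 2 records (6.47 and 243 kb), and the long one also spans Donson, Cryzl1 and Itsn1.

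In MEFs nearly every member held Pol II at its promoter in both genotypes. A promoter peak was present in 76 of 82 members (92.7%, 84.8 to 97.3) in WT, against 55.3% of all genes, and in 76 in Atxn7l3-/- MEFs, against 52.3%. The same 76 had it in both (all genes 50.8%), so 0 members lost and 0 gained a peak, where 8.01% of all genes with a WT peak lost it and 3.37% of those without one gained it. The median level was 15.2 in WT (range 3.93 to 35.8) and 11.7 in Atxn7l3-/- MEFs (range 2.92 to 25.2).

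In mESCs fewer members had a promoter peak and the calls moved in both directions. A peak was present in 49 members (59.8%, 48.3 to 70.4) in WT, against 35.3% of all genes, and in 43 (52.4%, 41.1 to 63.6) in Atxn7l3-/- mESCs, against 32.1%. It stood in both lists at 35 members (42.7%, all genes 27.2%), in WT only at 14, in Atxn7l3-/- only at 8 and in neither at 25. Over the members at least 5000 bp from another gene, the share in both lists was under that of all genes, as given below. Of the members with a WT peak, 28.6% (16.6 to 43.3) had none in Atxn7l3-/- mESCs, where the share of all genes was 22.8%. Of the 33 members without a WT peak, 24.2% (11.1 to 42.3) had one in Atxn7l3-/- mESCs, against 7.49% of all genes. With equal numbers of peaks in the lists, a WT peak alone stood at 13.4% of members and an Atxn7l3-/- peak alone at 14.6%, so the excess of WT calls was not kept. The median level was 4.53 in WT (range 2.17 to 11.5) and 4.44 in Atxn7l3-/- mESCs (range 3.20 to 12.6). The peaks found in 1 genotype only had levels of 2.57 to 5.48 in WT and of 3.20 to 5.52 in Atxn7l3-/- mESCs. These lay in the lower part of the ranges, but the highest of them lay above the medians.

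**Figure D1:**
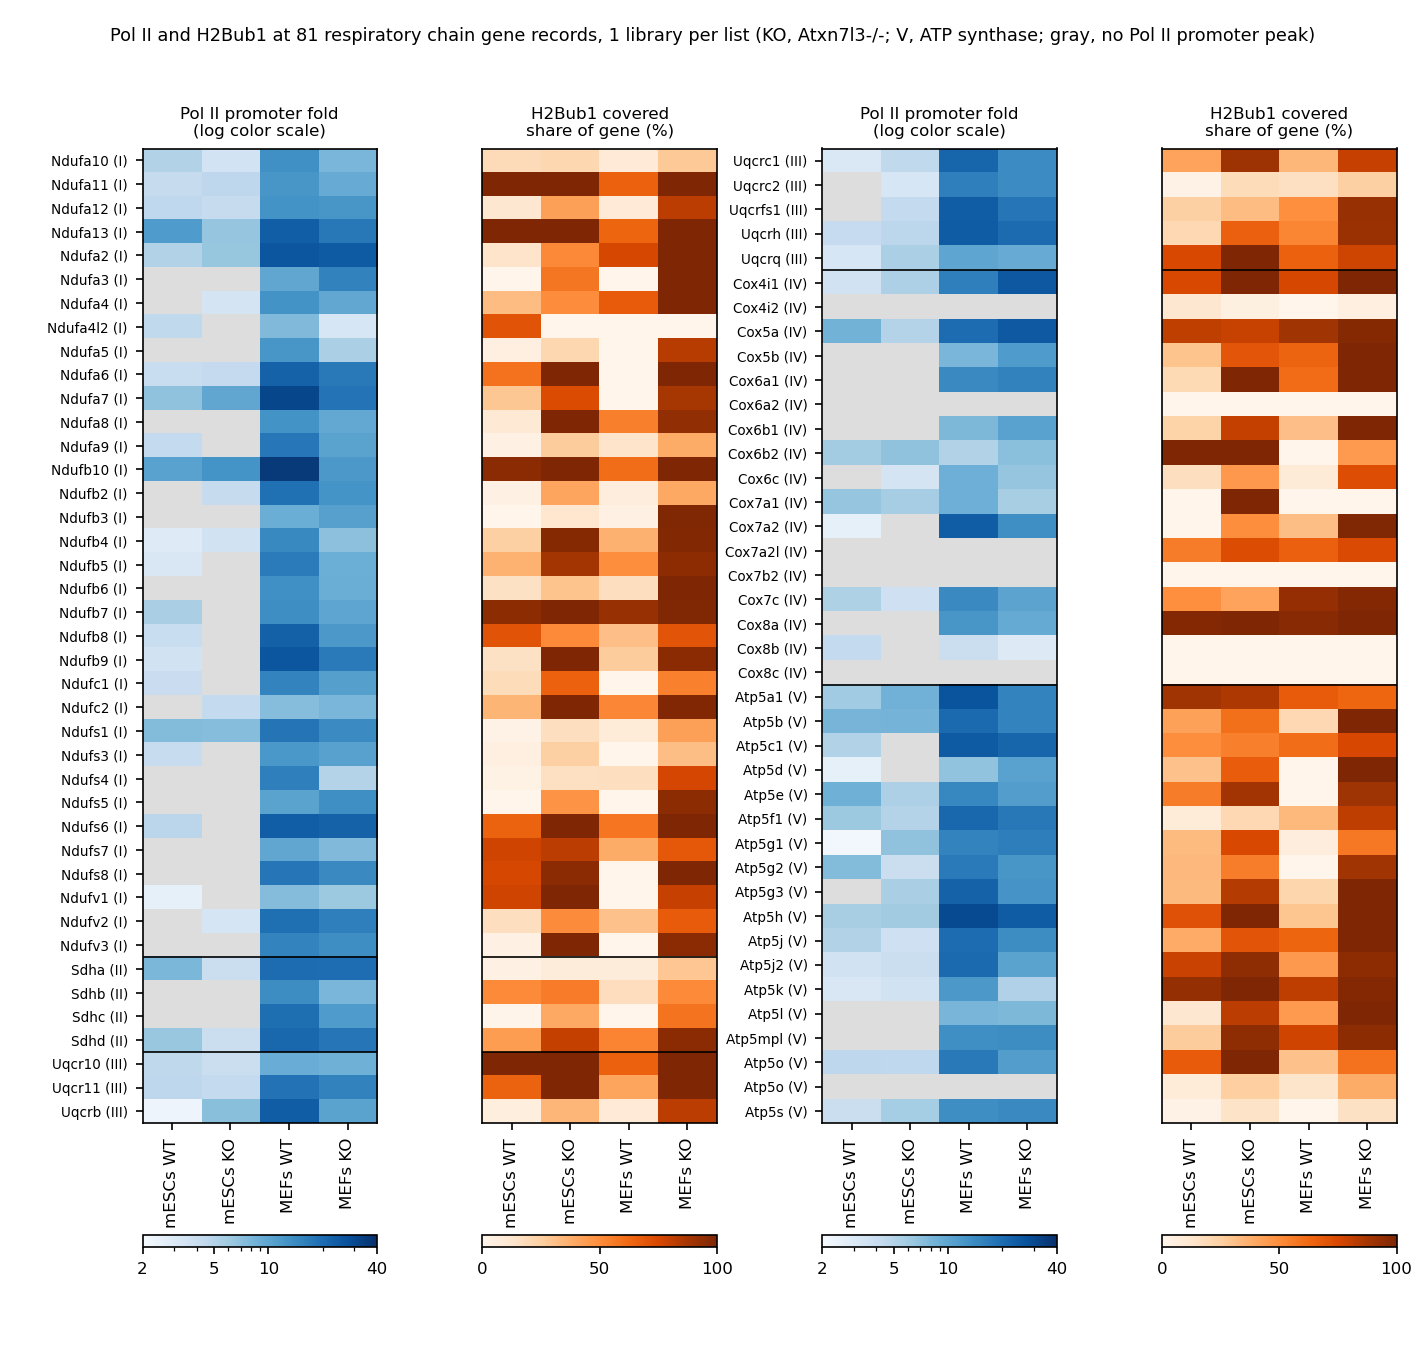
Heat maps of 81 of the member records (rows, grouped by complex, V being ATP synthase) in WT and Atxn7l3-/- (KO) mESCs and MEFs (columns): Pol II promoter fold in blue on a log color scale with gray for no peak, and H2Bub1 covered share of the gene body in percent in orange. Gray cells lie mostly in the mESC columns of Pol II, and the orange columns of KO cells are darker than those of WT.

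Pol II stood at 35 members in all 4 lists (42.7%, all genes 26.1%) and at 6 in none (7.32%, all genes 41.1%). 19 members had it in both MEF lists and in no mESC list (23.2%, all genes 14.2%). They were 11 of 35 members of complex I, 2 of 4 of complex II, 0 of 8 of complex III, 4 of 17 of complex IV and 2 of 18 of ATP synthase. Among them are Ndufs7 and Ndufs8, core subunits of complex I that carry electrons towards ubiquinone, Sdhb and Sdhc of complex II, and Cox5b, Cox6a1, Cox6b1 and Cox8a of complex IV. Accessory subunits of complex I such as Ndufa5, Ndufa8, Ndufs4 and Ndufv3, and Atp5l and Atp5mpl of ATP synthase, belong here too. In WT cells the Spearman correlation of the level in mESCs and MEFs over the 49 members with both was 0.24, across genes that share the same libraries.

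The 6 members without a promoter peak in any list were Cox4i2, Cox6a2, Cox7a2l, Cox7b2, Cox8c and the long Atp5o record. Cox4i2 is the lung isoform of the largest nuclear complex IV subunit, Cox6a2 a heart and muscle isoform, and Cox7b2 and Cox8c are testis isoforms. Cox7a2l differed from the isoforms in its H2Bub1, with covered shares of 55.6% and 72.9% in WT and Atxn7l3-/- mESCs and of 66.0% and 73.9% in MEFs. Its nearest Pol II peak in MEFs lay 2295 bp from the start of the record in WT and 2738 bp in Atxn7l3-/- cells.

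Where Pol II was called in both genotypes, its level in MEFs was lower without ATXN7L3 at most members. It was lower in Atxn7l3-/- MEFs at 62 of 76 members (81.6%, 71.0 to 89.5), where 67.5% of all genes with both peaks were lower. The median log2 ratio of Atxn7l3-/- to WT was -0.39 (-0.48 to -0.27), against -0.22 over all genes, a difference of -0.16. At least 1.5-fold lower were 24 members (31.6%, 21.4 to 43.3, all genes 23.9%), and at least 1.5-fold higher were 3 (3.95%, all genes 5.76%), namely Atp5d, Ndufa3 and Cox4i1. Set against the median of all genes, 51 of 76 members (67.1%) lay below it, 13 lay 1.5-fold below it (all genes 13.3%) and 7 lay 1.5-fold above it (all genes 12.2%). Each library's own background underlies its fold, so these ratios compare the lists and give no absolute occupancy.

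In mESCs the ratios spread evenly around no change. The level was lower in Atxn7l3-/- mESCs at 16 of 35 members (45.7%, 28.8 to 63.4, all genes 47.8%), and the median log2 ratio was 0.08 (-0.20 to 0.21), against 0.02 over all genes. With equal numbers of peaks in the WT and Atxn7l3-/- lists the median was -0.03, so it has no stable sign. At least 1.5-fold lower were 6 members (17.1%, all genes 10.9%), and at least 1.5-fold higher were 4 (11.4%, all genes 10.8%). Over the 35 members with a ratio in both cell types, the Spearman correlation of the ratios was -0.08.

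**Figure D2:**
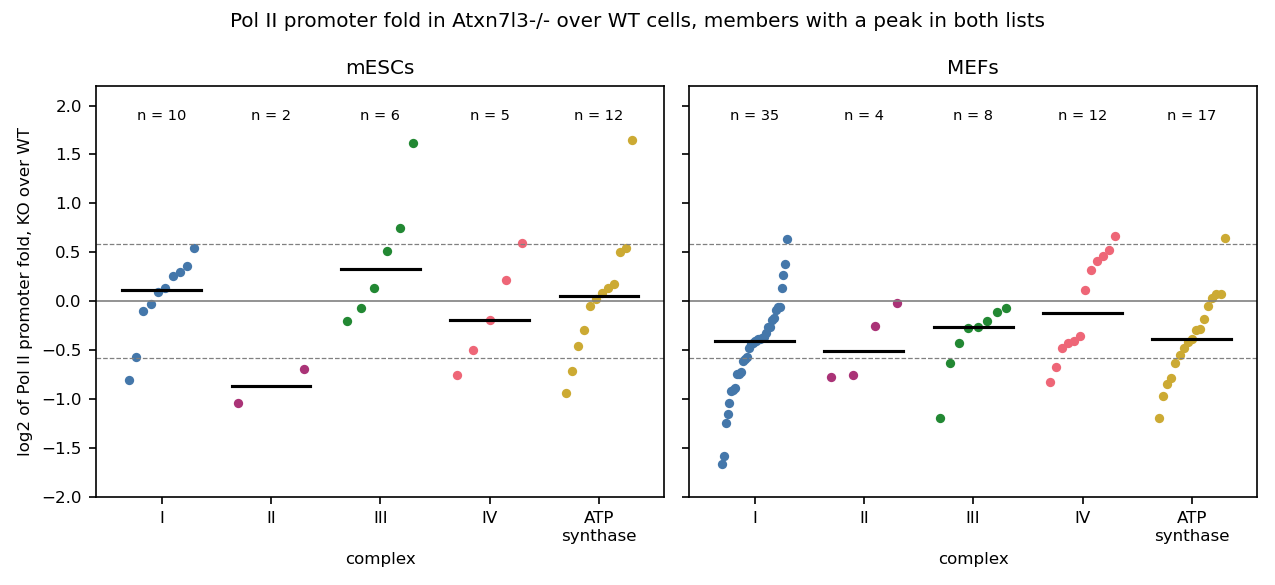
Log2 ratio of Atxn7l3-/- (KO) to WT Pol II promoter fold for each member with a peak in both genotypes, by complex, in mESCs and MEFs, with a black bar at the median of each complex and dashed lines at 1.5-fold. In MEFs the medians lie between -0.51 for complex II and -0.12 for complex IV, and in mESCs between -0.87 and 0.33.

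H2Bub1 covered far more of the member genes in Atxn7l3-/- cells. In MEFs the median covered share was 24.0% in WT and 90.4% in Atxn7l3-/- cells, against 0% and 6.37% over all genes, and the median difference was 39.0 points (34.4 to 47.9, all genes 4.80). With only peaks of a -log10 q of at least 3 the members' median difference in MEFs was 82.4 points, so its size depends on the threshold of the calls. The share was at least 20 points higher in 62 members (75.6%, 64.9 to 84.4), against 38.6% of all genes, and at least 20 points lower in 0, against 0.0769%. In mESCs the median was 27.4% in WT and 69.5% in Atxn7l3-/- cells, against 1.31% and 6.66% over all genes, and the median difference was 22.9 points (15.9 to 32.7, all genes 1.11). Over the 17 members at least 5000 bp from another gene it was 13.8 points (0 to 47.4). The share was at least 20 points higher in 45 members (54.9%, 43.5 to 65.9, all genes 21.1%) and at least 20 points lower in 1, Ndufa4l2 (all genes 1.30%). In both cell types the gain of 20 points was met by 42 members (51.2%, all genes 16.1%).

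Because members are short and mostly bound by Pol II, they were also set beside genes alike in length and in having a WT Pol II peak. Pol II level and distance to other genes were not matched. Among genes under 10 kb with a WT Pol II promoter peak, the gain of 20 points in MEFs was met by 43 of 53 members (81.1%, 68.0 to 90.6) and by 72.2% of all such genes. The median difference of these 53 members was 43.1 points (36.2 to 62.3), and the 46.3 points of all such genes lay inside that interval. In mESCs the gain was met by 22 of 36 members (61.1%, 43.5 to 76.9) and by 38.8%, and the median difference was 26.9 points (6.97 to 35.4), against 11.1. Over members of any length, the share with this gain in mESCs was lower at those at least 5000 bp from another gene, as given below. In WT MEFs 39 of the 53 members (73.6%, 59.7 to 84.7) held some H2Bub1 in the gene body, against 38.6% of all such genes, and their median share was 36.2%, against 0%. In WT mESCs these values lay near those of the matched genes, with some H2Bub1 at 33 of 36 members (91.7%, 77.5 to 98.2) against 89.9%, and a median share of 61.9% (33.5 to 74.9) against 54.4%. Genes of 10 kb or more with a WT Pol II peak were compared too. Their median difference in MEFs was 37.7 points (24.9 to 58.8) in 23 members, against 28.6 in all such genes. In mESCs it was 14.9 points (3.56 to 45.4) in 13 members, against 11.7.

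Some H2Bub1 lay in the gene body of 59 members in WT and 76 in Atxn7l3-/- MEFs (all genes 31.7% and 54.3%), and of 73 and 77 in mESCs (all genes 55.7% and 62.1%). In covered length, the median member had 1.79 kb of H2Bub1 in WT and 5.66 kb in Atxn7l3-/- MEFs, and 2.10 and 4.39 kb in mESCs. In MEFs 26 members (31.7%, all genes 6.42%) were covered over at least 99% of their length in Atxn7l3-/- cells and 0 in WT. In mESCs these were 22 (26.8%, all genes 5.52%) and 4, the 4 being Ndufa11, Ndufa13, Uqcr10 and Cox6b2. No share of all genes was set beside the WT counts, so they describe the members only. The share was lower in longer genes, with a Spearman correlation over the 82 members of -0.38 in Atxn7l3-/- mESCs and -0.33 in Atxn7l3-/- MEFs. The 55 members under 10 kb had medians of 31.4% and 98.5% in WT and Atxn7l3-/- MEFs, and of 34.9% and 82.4% in mESCs.

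**Figure D3:**
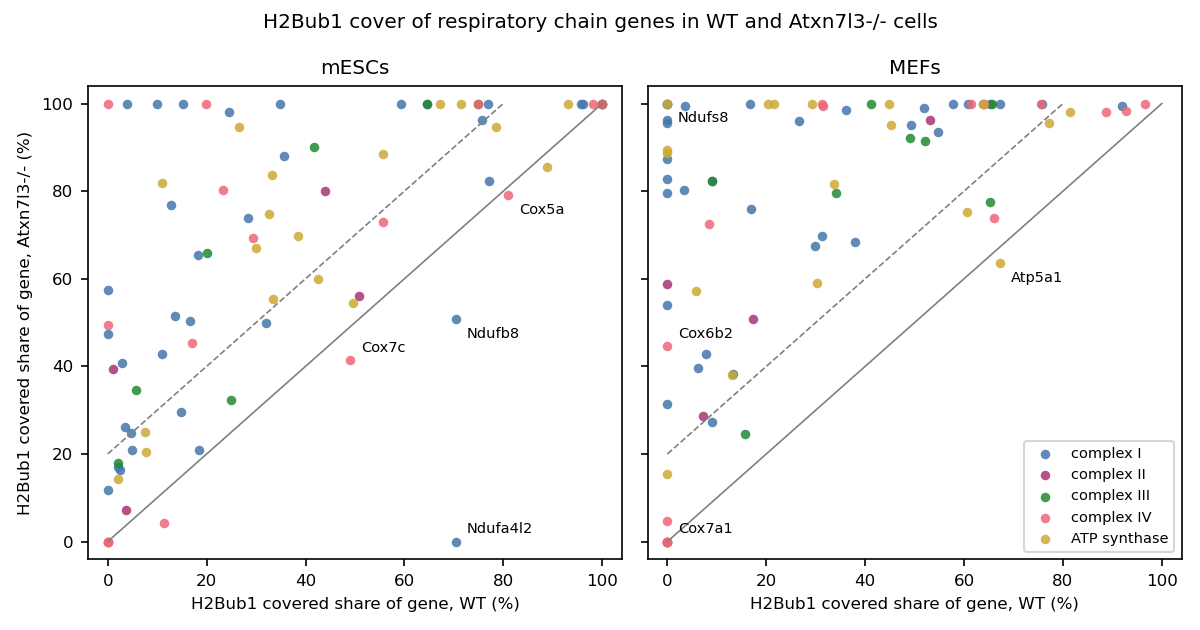
H2Bub1 covered share of each of the 82 member gene bodies in Atxn7l3-/- (KO) against WT, in percent, for mESCs and MEFs, with a solid line at equality and a dashed line 20 points above it. In MEFs 62 points lie on or above the dashed line and Atp5a1 alone lies below equality, and in mESCs these are 45 points and 6.

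The H2Bub1 peaks over the members also had higher folds in Atxn7l3-/- cells. The fold of a member was the mean over its peaks, weighted by covered bases. The median H2Bub1 fold of the members was 2.93 in WT and 3.59 in Atxn7l3-/- mESCs, and 3.15 and 4.34 in MEFs. At members with a peak in both genotypes, the median log2 ratio was 0.25 (0.19 to 0.30, n = 72, all genes 0.07) in mESCs and 0.50 (0.39 to 0.56, n = 59, all genes 0.34) in MEFs. Over all peaks of each list, in contrast, the median fold was lower in Atxn7l3-/- cells. It was 2.69 in WT and 2.56 in Atxn7l3-/- mESCs, and 3.09 and 2.32 in MEFs. Each library's own background underlies these folds as well. The difference in covered share in mESCs and in MEFs had a Spearman correlation of 0.53 over the 82 members, and these points share gene length and neighbours. Between the Pol II log2 ratio and the H2Bub1 difference it was 0.03 in MEFs (76 members) and 0.27 in mESCs (35 members).

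The mark was more frequent in Atxn7l3-/- cells in each bin along the gene body, and in all 4 lists it was less frequent at the gene end than at its maximum past the TSS. In Atxn7l3-/- MEFs 89.0% of members lay in an H2Bub1 peak at 730 to 880 bp past the TSS, and in WT at most 48.8%, at 1360 bp. In mESCs the maxima were 91.5% at 440 to 860 bp in Atxn7l3-/- cells and 64.6% at 350 to 410 bp in WT. Over the 66 members of at least 3 kb, cut into 10 equal bins, the mean cover in Atxn7l3-/- MEFs went from 90.2% in the first bin to 49.8% in the last. In WT MEFs it was 29.8% in the first bin, 39.9% in the next and 11.4% in the last. In mESCs it went from 47.6% in the first bin to 24.3% in the last in WT and from 90.8% to 40.6% in Atxn7l3-/- cells, so there the last bin held no larger part of the first than in WT. The ends of 36 members (43.9%, all genes 12.3%) lay in an H2Bub1 peak in Atxn7l3-/- MEFs and of 8 (9.76%, all genes 1.89%) in WT, and in mESCs these were 30 (36.6%, all genes 14.3%) and 24 (29.3%, all genes 10.3%).

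**Figure D4:**
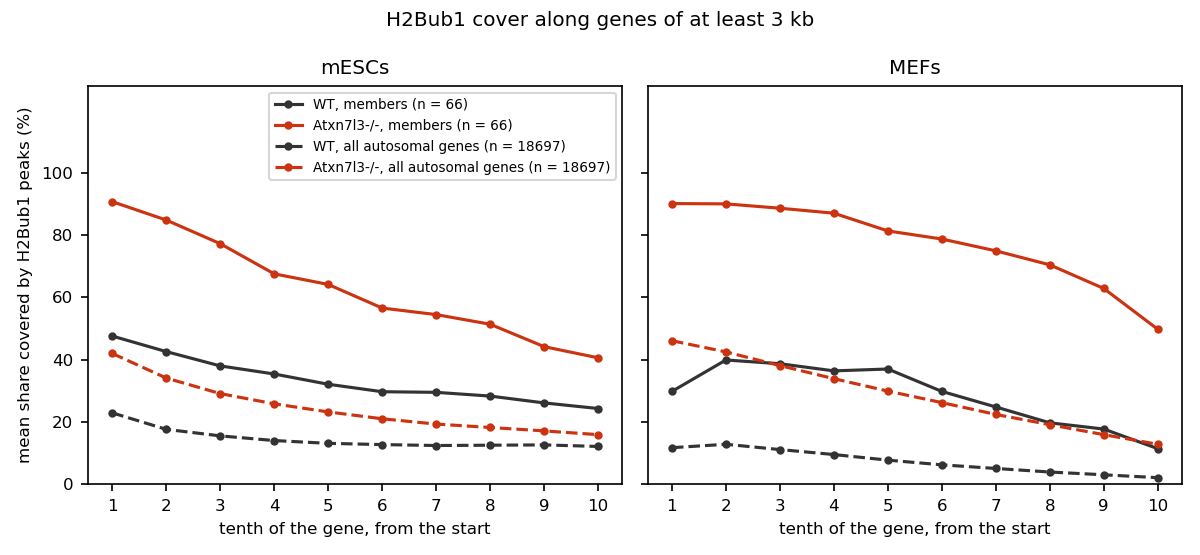
Mean H2Bub1 covered share, in percent, of 10 equal bins of the gene body from TSS to gene end, for the 66 members and the 18697 genes of at least 3 kb, in WT and Atxn7l3-/- (KO) mESCs and MEFs. The members' line in KO MEFs goes from 90.2% in the first bin to 49.8% in the last, and that of all genes from 46.1% to 12.8%.

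Pol II peaks inside the gene bodies were fewer in Atxn7l3-/- cells, at the members as over all genes. Past the first 1000 bp, of the 76 members longer than 2 kb, 39 (51.3%, all genes 44.4%) held a Pol II peak in WT MEFs and 27 (35.5%, all genes 35.7%) in Atxn7l3-/- MEFs. In mESCs these were 20 (26.3%, all genes 22.0%) and 9 (11.8%, all genes 14.3%). The WT mESC share was lower over the members at least 5000 bp from another gene, as given below. The mean covered share of the body went from 13.7% to 7.04% in MEFs (all genes 7.81% to 4.93%) and from 5.15% to 1.58% in mESCs (all genes 1.92% to 0.905%). The covered share was lower in Atxn7l3-/- cells at 31 members (all genes 36.6%) and higher at 8 (all genes 10.6%) in MEFs, and lower at 18 (all genes 19.2%) and higher at 1 (all genes 5.49%) in mESCs. The Atxn7l3-/- Pol II lists are also shorter as a whole. With the WT lists reduced to the same number of peaks, WT bodies held a Pol II peak at 43.4% of members in MEFs and 22.4% in mESCs, against an unchanged 35.5% and 11.8% in Atxn7l3-/- cells, so the gap was narrower in both.

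Complex I takes electrons from NADH, and its genes held Pol II in MEFs without exception. All 35 had a promoter peak in both MEF lists (all genes 50.8%), with a median log2 ratio of -0.41 (-0.61 to -0.32), 31 lower (all genes with both peaks 67.5%), 13 at least 1.5-fold lower (all genes 23.9%) and 1 at least 1.5-fold higher (all genes 5.76%). In mESCs 20 had a peak in WT, 14 in Atxn7l3-/- and 10 in both, where the median ratio was 0.12. Their median H2Bub1 share went from 13.3% to 95.1% in MEFs, with a gain of 20 points in 32 (all genes 38.6%), and from 18.2% to 65.3% in mESCs, with that gain in 21 (all genes 21.1%).

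Ndufb10 (chr17:24722060-24724478) had the highest Pol II level of all members in WT MEFs. Its level was 10.53 in WT and 12.6 in Atxn7l3-/- mESCs, and 35.8 and 11.9 in MEFs. The gene was thus about as high in both kinds of mESCs, while in MEFs the level was lower without ATXN7L3, with a log2 ratio of -1.59. H2Bub1 covered 96.1% and 100% of it in mESCs and 60.9% and 100% in MEFs.

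Ndufs4 (chr13:114287795-114388258), an accessory subunit needed for a stable complex I, had the lowest log2 ratio of any member in MEFs, -1.67. Its level was 16.0 in WT and 5.03 in Atxn7l3-/- MEFs, with no peak in mESCs. H2Bub1 covered 2.53% and 16.3% of its 100 kb in mESCs and 16.9% and 76.0% in MEFs. In covered length that was 17.0 kb in WT and 76.4 kb in Atxn7l3-/- MEFs, the second largest covered length among the members after the long Atp5o record. Pol II was thus lower and H2Bub1 wider at the same gene.

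Ndufa13, also known as GRIM-19, had the highest Pol II level in WT mESCs. The level was 11.5 in WT and 6.57 in Atxn7l3-/- mESCs, and 23.5 and 17.4 in MEFs, lower without ATXN7L3 in both cell types. Its body was fully covered by H2Bub1 in both mESC lists, and by 63.8% and 100% in WT and Atxn7l3-/- MEFs. The gene overlaps Yjefn3 and Tssk6, and its start lies 154 bp from that of Yjefn3.

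Ndufa7 had levels of 6.76 and 9.86 in WT and Atxn7l3-/- mESCs and of 30.8 and 18.5 in MEFs, higher without ATXN7L3 in mESCs and lower in MEFs. Its start lies 10 bp from that of Rps28, a ribosomal protein gene, so the peak belongs to both. H2Bub1 covered 28.3% and 73.8% of Ndufa7 in mESCs and 0% and 87.3% in MEFs.

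The largest H2Bub1 gains in MEFs were at genes without the mark in WT MEFs, where the capped share leaves most room for a gain. Ndufa6, an accessory subunit, was covered over 0% in WT and 100% in Atxn7l3-/- MEFs, and over 59.4% and 100% in mESCs. Ndufs8, which carries iron-sulfur clusters, was covered over 0% and 100% in MEFs and over 75.6% and 96.3% in mESCs. Both were therefore already covered over more than 50% of their length in WT mESCs and not at all in WT MEFs. The difference of Ndufs8 in mESCs changed sign when the first 1000 bp of the body were left out. Ndufa3, an accessory subunit, went from 0% to 99.9% in MEFs and from 0% to 57.4% in mESCs, and its Pol II level went from 9.87 to 15.4 in MEFs.

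In mESCs the gains were largest at Cox7a1 (0% to 100%), Ndufv3 (3.86% to 100%) and Ndufa8 (9.96% to 100%). Ndufv3, an accessory part of the NADH-binding module, and Ndufa8 had no Pol II promoter peak in either mESC list. In MEFs their levels were 15.2 and 13.5 for Ndufv3 in WT and Atxn7l3-/- cells, and 12.8 and 9.67 for Ndufa8. Their covered shares there were 0% and 96.3%, and 54.6% and 93.5%. Cox7a1, in contrast, had Pol II in both mESC lists. Of the 49 members with a WT Pol II peak in mESCs, 28 (57.1%, 42.2 to 71.2) met the gain of 20 points there, against 34.1% of all genes with such a peak.

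Ndufa4l2, an isoform of Ndufa4 known to be induced in hypoxia, went the opposite way. Its Pol II level was 4.38 in WT mESCs with no peak in Atxn7l3-/- mESCs, and 7.62 in WT and 3.21 in Atxn7l3-/- MEFs. H2Bub1 covered 70.4% of it in WT mESCs and 0% in the other 3 lists. It was the only member to lose 20 points, and its log2 Pol II ratio in MEFs was -1.25. The gene (chr10:127514967-127517154) overlaps Shmt2. The share of Ndufb8 went from 70.5% to 50.8% in mESCs, just short of the 20 points, and from 31.2% to 69.9% in MEFs.

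10 of the 14 members with a mESC peak in WT only belonged to complex I, the largest group with 35 of the 82 records. They were 10 of its 20 WT peaks (95% interval 27.2 to 72.8%, all genes 22.8%), namely Ndufv1, Ndufb5, Ndufb9, Ndufc1, Ndufb8, Ndufs3, Ndufa9, Ndufa4l2, Ndufs6 and Ndufb7, with WT levels from 2.58 for Ndufv1 to 5.48 for Ndufb7. Ndufv1, which binds NADH and FMN, and Ndufs3, a core subunit, are among them. The Atxn7l3-/- list is the shorter one, and the share for complex I was not recomputed with equal numbers of peaks. The 4 with a peak in Atxn7l3-/- mESCs only were Ndufv2, Ndufa4, Ndufb2 and Ndufc2, at 3.33, 3.41, 4.14 and 4.32. H2Bub1 in mESCs was higher without ATXN7L3 at Ndufb9 (15.2% and 100%), which lost its Pol II call, and at Ndufc2 (34.9% and 100%), which gained one.

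Complex II oxidises succinate and passes the electrons to ubiquinone, and its 4 genes differed among themselves. Sdha (chr13:74322254-74350280) had Pol II levels of 7.94 in WT and 3.85 in Atxn7l3-/- mESCs, and of 19.97 and 19.7 in MEFs. Its log2 ratio of -1.04 was the lowest of all members in mESCs, while in MEFs it was -0.02. Sdhd, a membrane anchor, had levels of 6.35 and 3.92 in mESCs and of 21.3 and 17.8 in MEFs, with log2 ratios of -0.70 and -0.26. Both levels were thus lower without ATXN7L3 in mESCs by more than 1.5-fold, and in MEFs by less.

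Sdhb, the iron-sulfur subunit, and Sdhc, the other anchor, had no mESC peak. Their levels in MEFs were 13.7 in WT and 8.02 in Atxn7l3-/- cells for Sdhb, and 19.6 and 11.6 for Sdhc, with log2 ratios of -0.77 and -0.76. These 2 genes were thus lower by more than 1.5-fold in MEFs, where the ratio of Sdha was near 0. H2Bub1 was wider in Atxn7l3-/- MEFs at all 4, going from 7.28% to 28.6% at Sdha, 17.3% to 50.9% at Sdhb, 0% to 58.8% at Sdhc and 53.0% to 96.2% at Sdhd. In mESCs it went from 0.994% to 39.3% at Sdhc and from 44.0% to 80.1% at Sdhd, and by under 20 points at Sdha (3.67% to 7.23%) and Sdhb (50.9% to 56.0%).

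Complex III passes electrons from ubiquinol to cytochrome c. All 8 genes had a Pol II peak in both MEF lists (all genes 50.8%), all 8 were lower without ATXN7L3 (all genes with both peaks 67.5%), and the median log2 ratio was -0.27 (-1.20 to -0.07). In mESCs 6 had a peak in WT (75.0%, all genes 35.3%) and 8 in Atxn7l3-/- cells (100%, all genes 32.1%), with a median ratio of 0.33 (-0.21 to 1.62). The median H2Bub1 share went from 45.1% to 86.9% in MEFs, with a gain of 20 points in 6 (all genes 38.6%), and from 33.3% to 78.0% in mESCs, with that gain in 5 (all genes 21.1%).

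Uqcrb (chr13:66900617-66905378), a subunit at the ubiquinone site, moved in opposite directions. Its Pol II level was 2.32 in WT and 7.10 in Atxn7l3-/- mESCs, and 23.7 and 10.3 in MEFs. The log2 ratios were 1.62 and -1.20, so it was higher without ATXN7L3 in mESCs and lower in MEFs. Its WT mESC level was near the lowest of any member, 2.17, so the mESC ratio rests on a weak WT peak. H2Bub1 was wider without ATXN7L3 in both, at 5.69% and 34.6% in mESCs and 9.07% and 82.4% in MEFs. The gene overlaps Gm10767.

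Uqcrc2, a core protein, and Uqcrfs1, the Rieske iron-sulfur protein, had a mESC peak in Atxn7l3-/- cells only, at 3.20 and 4.30. In MEFs their levels were 15.9 and 13.8, and 23.7 and 17.7, in WT and Atxn7l3-/- cells. Uqcrq, a small subunit, had 3.22 and 5.43 in mESCs, a log2 ratio of 0.75, and 9.98 and 9.23 in MEFs. Uqcrc1, the other core protein, had 3.09 and 4.42 in mESCs and 21.6 and 13.9 in MEFs. Of the 6 members of complex III with a WT mESC peak, 0 lost it (0 to 45.9%, all genes 22.8%).

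Complex IV reduces oxygen, and several of its subunits have isoforms of single tissues. Of the 17 genes, 12 had a Pol II peak in both MEF lists (70.6%, all genes 50.8%), with 6 lower without ATXN7L3 (all genes 67.5%) and a median log2 ratio of -0.12 (-0.48 to 0.46). In mESCs 7 had a peak in WT (41.2%, all genes 35.3%), 6 in Atxn7l3-/- cells (35.3%, all genes 32.1%) and 5 in both (29.4%, all genes 27.2%). These counts lay near the shares of all genes, and the median log2 ratio over the 5 was -0.20. The median H2Bub1 share went from 31.2% to 73.9% in MEFs, and from 19.9% to 69.2% in mESCs, but the median difference per gene was 7.96 points (0 to 38.7) in MEFs and 1.79 points (0 to 39.9) in mESCs. A gain of 20 points was met by 7 in each cell type (41.2%, 18.4 to 67.1), near the 38.6% of all genes in MEFs and against 21.1% in mESCs. The share was equal in both genotypes at 5 genes in each cell type (29.4%, all members 9.76% in mESCs and 7.32% in MEFs). It was lower without ATXN7L3 at 3 in mESCs (17.6%, all members 7.32%). Genes without the mark in either genotype count as equal, and no share of all genes was set beside these counts.

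Cox4i1 (chr8:120668222-120674207), the isoform of the regulatory subunit used in most tissues, was the one member at least 1.5-fold higher in both cell types. Its Pol II level was 3.54 in WT and 5.32 in Atxn7l3-/- mESCs, and 15.9 and 25.2 in MEFs. The log2 ratios were 0.59 and 0.67, and the second was the highest of any member in MEFs. H2Bub1 covered 75.0% and 100% of it in mESCs and 75.6% and 100% in MEFs. Its start lies 143 bp from that of Gm27021, and the gene overlaps Gm20388 and Emc8, so the peak cannot be assigned to Cox4i1 alone.

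Cox5a had Pol II levels of 8.43 and 5.00 in mESCs and of 20.02 and 25.0 in MEFs, lower without ATXN7L3 in mESCs and higher in MEFs. Cox5b and Cox6b1, subunits of all tissues, were higher in MEFs as well, at 8.002 and 11.5 and at 7.82 and 10.4. Cox7a2, the general isoform next to Cox7a1, was lower, at 23.9 and 13.4. H2Bub1 at Cox5a was high in every list, between 79.1% and 97.99%, and that at Cox7c was 49.1% and 41.5% in mESCs and 92.8% and 98.3% in MEFs.

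In MEFs the isoforms of restricted expression had Pol II levels under the median of the members, or no peak. A list of 7 restricted isoforms held Cox4i2, Cox6a2, Cox6b2, Cox7a1, Cox8b, Cox8c and Ndufa4l2 and left out Cox7b2, and a gain of 20 points in H2Bub1 was met by 1 of them in each cell type (14.3%, all genes 21.1% in mESCs and 38.6% in MEFs). Cox6b2, a testis isoform, had Pol II levels of 5.83 and 6.76 in mESCs and of 5.11 and 7.04 in MEFs, with covered shares of 100% and 100%, and of 0% and 44.7%. Cox7a1 (chr7:30184144-30186078) had levels of 6.55 and 5.71 in mESCs and of 8.83 and 5.54 in MEFs, and its covered share was 100% in Atxn7l3-/- mESCs and 0% in the other 3 lists. These 2 genes had Pol II in every list, and H2Bub1 in only some. Cox8b, a heart and muscle isoform, had 4.28 in WT mESCs, 3.93 in WT MEFs and 2.92 in Atxn7l3-/- MEFs and no H2Bub1 in any list. Together with Cox6a2, Cox7b2 and Cox8c it made up the 4 members without H2Bub1 in all lists (all genes 31.4%).

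ATP synthase had Pol II at 17 of its 18 records in both MEF lists (94.4%, all genes 50.8%), the long Atp5o record being the exception. The median log2 ratio was -0.39 (-0.63 to -0.05), with 13 of 17 lower and 5 at least 1.5-fold lower, near the 67.5% and 23.9% of all genes with both peaks. In mESCs 14 had a peak in WT (77.8%, all genes 35.3%) and 13 in Atxn7l3-/- cells (72.2%, all genes 32.1%). A peak in both stood at 12 (66.7%, all genes 27.2%), with a median log2 ratio of 0.05. The median H2Bub1 share went from 29.7% to 92.3% in MEFs, with a gain of 20 points in 13 (all genes 38.6%), and from 36.0% to 78.3% in mESCs, with that gain in 10 (all genes 21.1%).

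The alpha and beta subunits differed in their H2Bub1. Atp5b, the beta subunit, had Pol II levels of 8.15 and 8.25 in mESCs and of 20.4 and 15.2 in MEFs, and covered shares of 42.4% and 59.9%, and of 20.4% and 100%. Atp5a1, the alpha subunit, had levels of 5.98 and 8.48 in mESCs and of 26.3 and 15.3 in MEFs, and covered shares of 88.9% and 85.4%, and of 67.3% and 63.6%. Atp5a1 was the only member whose share was lower without ATXN7L3 in MEFs, with a difference of -3.75 points. Its start lies 157 bp from that of Haus1, which it overlaps.

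The c-ring of the ATP synthase rotor is encoded by Atp5g1, Atp5g2 and Atp5g3, whose mature proteins are the same, and the 3 genes differed in mESCs. Atp5g1 (chr11:96068852-96075670) had Pol II levels of 2.17 and 6.81 in WT and Atxn7l3-/- mESCs and of 15.2 and 16.1 in MEFs. Atp5g2 had 7.45 and 3.87 in mESCs and 17.0 and 12.2 in MEFs. Atp5g3 had a peak of 5.52 in Atxn7l3-/- mESCs only, and 22.3 and 12.4 in MEFs. In mESCs Atp5g1 was thus higher without ATXN7L3, with the highest log2 ratio of any member there, 1.65, and Atp5g2 lower, with -0.94. The WT mESC level of Atp5g1, 2.17, was the lowest of any member, so its ratio rests on a weak WT peak. H2Bub1 in Atxn7l3-/- MEFs covered 57.3% of Atp5g1, 88.8% of Atp5g2 and 100% of Atp5g3, from 5.87%, 0% and 21.5% in WT.

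Among the other subunits, Atp5h had one of the higher levels in MEFs, 29.3 in WT and 24.0 in Atxn7l3-/- cells, and 5.57 and 5.90 in mESCs. Atp5k, a small membrane subunit, had 3.14 and 3.55 in mESCs and 11.9 and 5.21 in MEFs, a log2 ratio of -1.19. Atp5e had 8.72 and 5.30 in mESCs and 14.6 and 11.1 in MEFs. All 3 were lower in Atxn7l3-/- MEFs, and Atp5e in Atxn7l3-/- mESCs too. Atp5d, the delta subunit, had 2.57 in WT mESCs with no peak in Atxn7l3-/- mESCs, and 6.73 and 10.4999 in MEFs, a log2 ratio of 0.64. That ratio turned to -0.33 when any annotated transcript start of the gene was allowed. Its covered share was 30.03% and 67.1% in mESCs and 0% and 100% in MEFs. Atp5c1, the gamma subunit that forms the rotor shaft, lost its mESC peak of 5.13 and had 24.5 and 21.6 in MEFs.

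The other genes of the pathway, taken from lists chosen with earlier results of these data known, had median Pol II ratios in MEFs near that of the subunits. The gain of 20 points in H2Bub1 counted below was met by 38.6% of all genes in MEFs and 21.1% in mESCs, and by 65.2% and 34.1% of those with a WT Pol II peak. Of 48 assembly factors, which insert cofactors and join subunits, 47 had a Pol II peak in both MEF lists, with a median log2 ratio of -0.38 (-0.50 to -0.17), 16 at least 1.5-fold lower (all genes 23.9%) and 0 at least 1.5-fold higher (all genes 5.76%). Their H2Bub1 median went from 1.09% to 56.6% in MEFs, with a gain of 20 points in 40 (83.3%), and from 11.1% to 36.8% in mESCs, with that gain in 22 (45.8%). WT MEFs thus had less of the mark on the assembly factors, whose median length was 10.3 kb, than on the subunits, at a median WT Pol II level of 15.2 in both lists. Of 14 tricarboxylic acid cycle genes, which make NADH and succinate for the chain, all 14 had Pol II in both MEF lists with a median of -0.41, and the H2Bub1 gain was met by 13 in MEFs (92.9%) and 8 in mESCs (57.1%). Of 13 genes of ubiquinone synthesis, cytochrome c and electron transfer flavoproteins, it was met by 10 (76.9%) and 4 (30.8%), and the median Pol II ratio in MEFs was -0.48. Of 12 regulators, Nrf1, Gabpa, Yy1 and Tfam among them, it was met by 7 (58.3%) and 5 (41.7%), and the median Pol II ratio in MEFs was -0.39 over 11 genes. The last 3 lists hold longer genes, with medians of 24.4, 20.4 and 28.4 kb against 7.57 kb in the members, and the median length covered by H2Bub1 in Atxn7l3-/- MEFs was 15.4, 7.00 and 10.2 kb against 5.66 kb.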

How the data were processed

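ChIP-seq peak lists of H2Bub1 and Pol II (RPB1 antibody) were analysed for WT and Atxn7l3-/- mESCs and MEFs, 8 lists of 1 library each. The other 8 of the 16 samples, inputs and ChIP of Pol II with phosphorylated serine 2, were not analysed here. Chromatin was fixed with paraformaldehyde and sonicated, and the buffers held N-ethylmaleimide, which blocks deubiquitylation. The submitters' processing notes name bcl2fastq 2.17.1.14, Bowtie 1.0.0 and MACS2 2.1.1.20160309, and the authors aligned reads to mm10. They called peaks per library, broad for H2Bub1 and narrow for Pol II. The authors scaled H2Bub1 signal by size factors over intergenic regions and Pol II signal by mapped reads, and how this entered the calls, the control and the thresholds are not given in the sources used here. The deposited fold of each peak is a linear ratio over local background. The deposited lists also give -log10 p and -log10 q values, and a display score that was not used. Read depth is unknown, so the intervals cover counting error only.

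Peaks were placed on GENCODE M21 (GRCm38). Thresholds were 1.5-fold for Pol II levels and 20 points for the H2Bub1 covered share. No sample is a replicate of another, so groups were compared by counts and medians, set beside all autosomal genes. The members and the lists were chosen with earlier results of these data known. Genes were named by a rule: the targeted gene, members with a Pol II call in 1 genotype only or in none, the 3 members at each extreme of level, ratio and H2Bub1 difference, the tissue-restricted isoforms, the Sdh genes, subunits outside the symbol rule and members with a shared start. Further members were named after their values were seen, to show each complex. Some single-gene values are not reported here. The settings tried besides were peaks with -log10 q of 3 or more, equal peak numbers (longer list reduced by -log10 p), members at least 5000 bp from another gene, a window from 100 bp upstream to 300 bp downstream, any transcript start, the summit in the window, a difference of 10 points, peaks under 1000 bp apart joined, and bodies without their first 1000 bp. 3 more were added after the data were seen. The scripts ran in Python 3.11.15 with pandas 2.3.3, numpy 2.4.6, matplotlib 3.10.9 and scipy 1.17.1, and the functions were tested on simulated data.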

Additional observations from a re-analysis of the deposited data

Results flagged for a closer look

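Uqcrb, of complex III, went in opposite directions in the 2 cell types. Its log2 ratio of Atxn7l3-/- to WT Pol II promoter fold was 1.62 in mESCs and -1.20 in MEFs. The WT mESC peak behind the first ratio was weak, at a fold of 2.32, where the lowest of any member was 2.17. Each value rests on 1 library per group, and the difference between the cell types was not tested.

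The median log2 ratio over the members also had opposite signs, 0.08 in mESCs (35 members) and -0.39 in MEFs (76 members). The first is within its interval of 0 and the difference was not tested.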

How the results depend on the processing

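Of 148 recomputed summary values under 12 settings, 132 stayed within the interval of the value given, 12 left it and 4 changed sign. No paired analysis was possible because each group had 1 library and no replicate numbers. The median log2 Pol II ratio in mESCs turned from 0.08 to -0.01 with a -log10 q of at least 3, to -0.03 with equal numbers of peaks, to -0.63 over the 4 members at least 5000 bp from another gene, and to -0.01 over members with no other TSS within 1000 bp. In MEFs the median H2Bub1 difference was 82.4 points with a -log10 q of at least 3. Over the 17 members at least 5000 bp from another gene, Pol II was called in both genotypes at 23.5% in mESCs and 76.5% in MEFs, and in WT mESC bodies at 12.5%. In the same members the median log2 ratio in MEFs was -0.48, the median H2Bub1 difference in mESCs 13.8 points, and a gain of 20 points was met by 41.2% in mESCs and 58.8% in MEFs, with 0% lower by 20 points in mESCs. With a difference of 10 points, 70.7% of members were higher in mESCs. Without the tissue-restricted members and Cox7b2, 97.3% had Pol II in both MEF lists and 0% were at least 20 points lower in H2Bub1 in mESCs. This setting, the one for other TSSs and the one with a single Atp5o record were chosen after seeing the data. Among 987 recomputed gene values, 963 stayed past their threshold, 22 fell under it in the same direction and 2 changed sign. With any transcript start allowed, the log2 Pol II ratio in MEFs was -0.33 for Atp5d, and without the first 1000 bp the H2Bub1 difference of Ndufs8 in mESCs was -4.95 points. The causes were not tested. With 1 library per group and unknown depth, a missing peak is a call below the threshold of its list, not an absence of Pol II or H2Bub1.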

Other observations

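Subunit genes that the symbol rule or the restriction to autosomes left out gave the following values. Ndufa1, Ndufb11 and Cox7b lie on the X chromosome, and all 3 had 0% H2Bub1 cover in WT mESCs and 56.0%, 97.4% and 86.1% in Atxn7l3-/- mESCs. In MEFs Ndufa1 went from 0% to 67.3%, Ndufb11 from 26.8% to 100% and Cox7b from 0% to 57.3%. Their Pol II levels in WT and Atxn7l3-/- MEFs were 6.08 and 4.76 for Ndufa1, 13.6 and 7.61 for Ndufb11 and 7.37 and 6.87 for Cox7b. In mESCs Ndufb11 alone of these had a Pol II peak, of 3.35 in Atxn7l3-/- cells.

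Among the autosomal ones, Cyc1, the cytochrome c1 subunit of complex III, had a Pol II level of 6.00 in WT mESCs with no peak in Atxn7l3-/- mESCs, and levels of 19.9 and 18.2 in MEFs. Cycs, cytochrome c, had 4.30 and 3.75 in mESCs and 23.1 and 14.8 in MEFs. Atpif1, the inhibitor of ATP synthase, had no Pol II peak in mESCs and an H2Bub1 share of 0% in WT and 100% in Atxn7l3-/- MEFs. Ndufab1, the acyl carrier protein of complex I, had no Pol II peak in mESCs either, and its H2Bub1 share was 10.55% and 65.4% in WT and Atxn7l3-/- mESCs and 23.4% and 100% in MEFs. Usmg5, a small ATP synthase subunit, had Pol II levels of 3.48 and 4.27 in mESCs and of 10.6 and 10.9 in MEFs.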
